A study of Caenorhabditis elegans with 14 samples.

Results

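miR-63, miR-64, miR-65, miR-66 and miR-229 of *C. elegans* are 5 miRNAs whose abundant strands begin with the same seed, the stretch near the 5′ end by which a miRNA finds its targets. Their rows were taken by name from the features classed as miRNAs, and both arms of each hairpin were kept, whatever their level. This gave 10 mature arms of 450 listed miRNAs and 23869 listed small RNA features. The 10 iso-miR rows of the same arms (reads whose 5′ end lies 1 to 3 nucleotides off the annotated one) and the 5 rows of hairpin reads were described beside them.

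A miRNA starts as a hairpin within a longer transcript, the primary miRNA. In the nucleus the Microprocessor, made of the RNase III enzyme Drosha (DRSH-1) and its partner Pasha (PASH-1, called DGCR8 in mammals), cuts the hairpin free. Dicer then removes the loop, and 1 strand of the resulting duplex, the main arm, is kept by an Argonaute protein while the other, the minor arm, is mostly lost. Because members of a seed family share their seed, they are expected to recognize overlapping sets of mRNAs, whichever locus they come from. The main arm was the 3p arm for miR-63 and the 5p arm for the other 4 miRNAs. The mature sequences of miR-64-5p and miR-65-5p are near-identical, and reads too short to tell them apart could be divided between them; this was not tested.

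The 5 hairpins lie at 2 places in the genome (WBcel235 annotation). Those of mir-229, mir-64, mir-65 and mir-66 stand in this order on the plus strand of chromosome III, at 2172452–2172566, 2172848–2172957, 2173002–2173101 and 2173108–2173206. They span 755 nt, with gaps of 281, 44 and 6 nt, inside a single intron of 6429 nt of gcn-1, a protein-coding gene transcribed from the same strand, and they overlap none of its exons. mir-63 lies alone on the minus strand of chromosome X, at 17598765–17598868, between genes. The nearest protein-coding gene, lec-9, is 1619 nt away.

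The mutants carried pash-1(ram33[G179R]), strain TAM93, in which a glycine of the WW domain of PASH-1 is replaced by arginine; the allele came from a mutagenesis screen and the strain was outcrossed to wild-type. Wild-type was strain N2. Whole gravid hermaphrodites were collected 72 h after the synchronized L1 stage at 20 °C (3 mutant and 3 wild-type libraries) or 54 h after it at 25 °C (4 mutant and 4 wild-type libraries), and small RNAs were sequenced. The study calls the libraries of a strain biological replicates without describing separate cultures, so p-values measure the spread between these libraries. At the higher temperature, the paper reports, mutants had fewer progeny and many were sterile. Most looked close to normal, but some had protruding vulvas or had burst. The paper states that developmental defects there limit how far single miRNAs can be interpreted. The part of such defects in the values below was not tested.

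The values are rpm, reads scaled to a common library size. A single read added 0.0425 to 0.0609 rpm, depending on the library, which puts the depth at an estimated 16400000 to 23500000 reads. Rpm was rescaled within each temperature by median-of-ratios size factors, and the strains were compared with limma on log2(rescaled rpm + 0.1), which understates fold changes of features near 0.1 rpm. Rescaled values of the temperatures were not set side by side, since each table was scaled on its own. Whole animals were sequenced, so fewer cells of a type and less RNA per cell cannot be told apart. The summed rpm of miR-35 to miR-42, miRNAs of embryos, ran over 90252–102353 in the 20 °C mutant libraries, against 168187–187147 in their wild-type counterparts. In the 25 °C libraries it ran over 58334–69869 in mutants, against 191318–214892 in wild-type. At 20 °C, 7 of these 8 markers were lower and 1 was higher in mutants, and at 25 °C all 8 were lower. The piRNA total, a germline class, was 87831 to 100531 rpm in mutants and 71730 to 81153 rpm in wild-type at 20 °C, and 73966 to 85750 rpm in mutants and 39460 to 44540 rpm in wild-type at 25 °C. At 25 °C the neuronal miR-124-3p was higher in mutants (log2 difference 0.70 after rescaling) and the muscle miR-1-3p was lower after rescaling (-0.50), though as deposited miR-1-3p was at 196414 to 236359 rpm in mutants, against 184646 to 206093 rpm in wild-type. Neither was called at 20 °C. The embryo, neuron and muscle markers are themselves miRNAs, whose processing the mutation can change, so content and processing cannot be told apart in them. The part that embryo, germline, neuron or muscle content had in the values below was not tested. Mutant replicate 4 at 25 °C stood apart in the share of miRNA rpm taken by the family, and values without it are given where it mattered.

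miR-63 was the member lowered most in mutants, on both arms and at both temperatures. At 20 °C miR-63-3p had 357, 356 and 335 rescaled rpm in mutants, against 767, 859 and 935 in wild-type. Every mutant library was below every wild-type library, and the difference was -1.28 on the log2 scale (SE 0.10, adjusted p = 5.94e-13). The 25 °C libraries had 171, 161, 182 and 173 rescaled rpm in mutants, against 979, 1000.2, 1065 and 1097 in wild-type. The libraries again did not overlap, and the log2 difference was -2.59 (SE 0.07, adjusted p = 1.01e-24), which is 6.02-fold lower in mutants. The minor arm, miR-63-5p, moved with it. It had 34.9, 33.8 and 28.9 rescaled rpm in mutants and 102, 98.1 and 95.6 in wild-type at 20 °C, a log2 difference of -1.60 (SE 0.11, adjusted p = 2.41e-13). At 25 °C it had 18.0, 17.1, 19.3 and 20.98 in mutants and 102, 95.8, 106 and 106 in wild-type, a log2 difference of -2.44 (SE 0.08, adjusted p = 3.75e-21). The mutant values lay below all wild-type values at both temperatures.

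**Figure D1:**
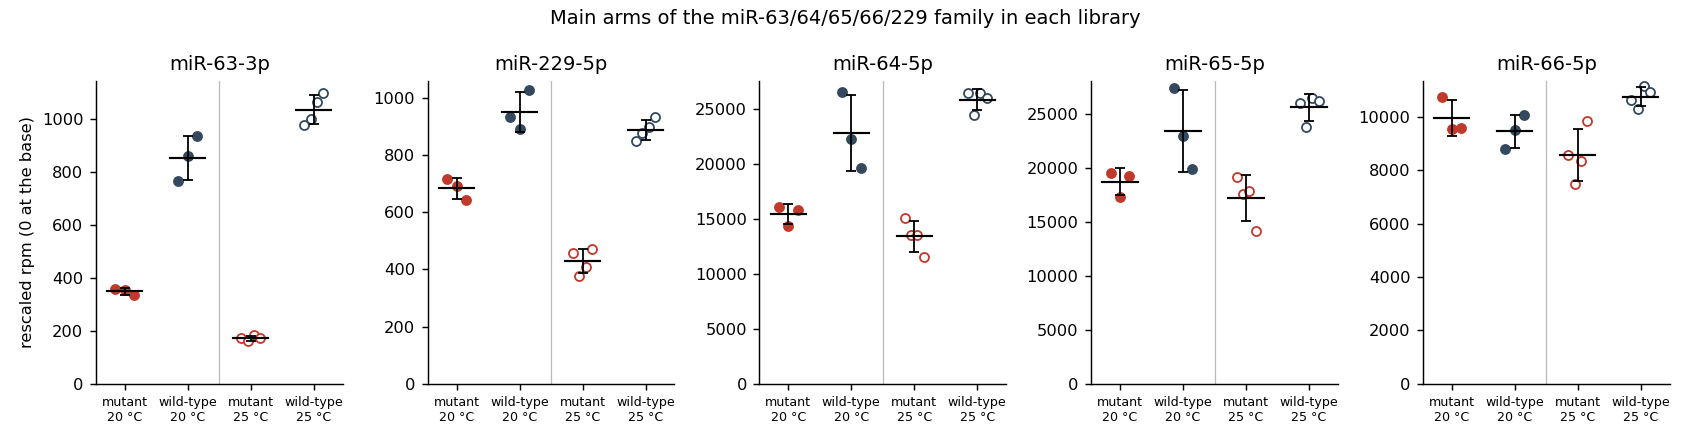
Rescaled rpm (y axes from 0, a panel per main arm) in each library, mutants left of wild-type at each temperature; points are libraries, bars the mean and SD (n = 3 per strain at 20 °C, n = 4 at 25 °C), and each temperature was scaled separately. miR-63-3p is lowest against its wild-type, 161 to 182 against 979 to 1097 rescaled rpm at 25 °C, while miR-66-5p overlaps between the strains at 20 °C.

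Among the clustered hairpins, mir-229 is the first. At 20 °C miR-229-5p had 714, 690.1 and 643 rescaled rpm in mutants, against 933, 891 and 1025 in wild-type. The log2 difference was -0.48 (SE 0.09, adjusted p = 4.69e-04) with no overlap between the strains. Grown at 25 °C, mutants had 456, 377, 409.7 and 472 rescaled rpm of it, against 848, 877, 896 and 932 in wild-type. There too no libraries overlapped, and the log2 difference was -1.06 (SE 0.07, adjusted p = 9.36e-14). Its minor arm, miR-229-3p, was abundant enough to test. It had 83.3, 76.0 and 77.4 rescaled rpm in mutants and 118, 121 and 126 in wild-type at 20 °C (log2 difference -0.62, SE 0.10, adjusted p = 4.14e-05). In 25 °C libraries it had 67.8, 64.6, 63.5 and 74.4 in mutants and 189.9, 171, 178 and 183 in wild-type (log2 difference -1.42, SE 0.07, adjusted p = 1.42e-16). No mutant library reached the wild-type range of either arm.

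miR-64-5p and miR-65-5p were the most abundant members in every group. miR-64-5p had 16082, 14370.0 and 15809.7 rescaled rpm in mutants and 26568, 22237 and 19681 in wild-type at 20 °C. The strains did not overlap, with wild-type replicate 1 highest, and the log2 difference was -0.56 (SE 0.09, adjusted p = 4.98e-05). miR-64-5p at 25 °C had 15078, 13545, 13499 and 11581 in mutants, against 26496, 24473, 26438.5 and 25993.5 in wild-type. The log2 difference was -0.95 (SE 0.07, adjusted p = 8.89e-13), again without overlap. Its minor arm miR-64-3p was listed at 0 in 10 of the 14 libraries, reached 0.19 rpm at most as deposited, and was under the filter. A count of 0 allows up to 3 reads, which is 0.128 to 0.183 rpm in these libraries, for counting error only.

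miR-65-5p differed less between the strains than miR-64-5p. At 20 °C it had 19569, 17266 and 19276 rescaled rpm in mutants, against 27389.9, 22962 and 19897 in wild-type. The highest mutant library lay just under the lowest wild-type library, and the log2 difference of -0.31 (SE 0.10) had an adjusted p of 0.0409. This call was lost without any of 4 of the 6 libraries (mutant replicates 2 and 3, wild-type replicates 1 and 2), where the adjusted p was 0.109 to 0.353, without the filter on low values (0.213) or with a filter at 5 rpm (0.054), and with libraries scaled to their piRNA total (log2 difference -0.24, adjusted p = 0.193) or to CSR-class siRNAs (-0.15, adjusted p = 0.367). At 25 °C miR-65-5p had 19151, 17604, 17879.6 and 14179 in mutants and 26031, 23761, 26489 and 26234 in wild-type. The strains did not overlap, with a log2 difference of -0.58 (SE 0.07, adjusted p = 7.62e-08). The minor arm miR-65-3p had 4.23–5.73 rescaled rpm in mutants, against 3.82–4.81 in wild-type, at 20 °C. Values at 25 °C were 4.64–10.7 in mutants, against 6.08–7.19 in wild-type. The strains overlapped at both temperatures, and its log2 differences of 0.20 (95% interval -0.21 to 0.61) and 0.07 (-0.27 to 0.42) did not pass the test.

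miR-66-5p, the third most abundant member, had 10738, 9565 and 9604 rescaled rpm in mutants at 20 °C, against 8808, 9511 and 10063 in wild-type. The strains overlapped, and the log2 difference was 0.08 (95% interval -0.10 to 0.25, adjusted p = 0.696). At 25 °C it had 8571, 7505, 8337 and 9842 in mutants and 10638, 10313.5, 11164 and 10920.4 in wild-type. All mutant libraries were lower, replicate 4 least so, with a log2 difference of -0.34 (SE 0.07, adjusted p = 1.25e-04). The minor arm miR-66-3p, at 1.67 to 4.74 rescaled rpm, overlapped between the strains at 20 °C (log2 difference -0.22, adjusted p = 0.675). At 25 °C it did not, and it was lower in mutants by a log2 difference of -0.78 (SE 0.20, adjusted p = 9.68e-04). This call was lost on the rpm as deposited (-0.22, adjusted p = 0.369) and with libraries scaled to CSR-class siRNAs (0.06, adjusted p = 0.809).

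Over the members, 9 of the 10 arms passed the filter of a mean of 1 rpm at each temperature. At 20 °C, 6 of the 9 were lower in mutants and 0 higher, where 3.84% of all features tested and 52.8% of the tested miRNAs were lower and 2.06% of all features were higher. The median log2 difference of the 9 was -0.48, beside -0.43 over the tested miRNAs and -0.01 over all features. The same 6 arms had strains that did not overlap, as did 22.4% of all features. At 25 °C, 8 of 9 were lower and 0 higher, where 39.3% of all features and 71.6% of the tested miRNAs were lower and 33.6% of all features were higher. The median was -0.95 for the 9 arms, -0.90 for the tested miRNAs and -0.04 for all features, and 8 arms did not overlap, as did 62% of all features. The members as a group thus stood close to the miRNA class. Among the main arms at 25 °C they ran between 6.02-fold lower for miR-63-3p and 1.26-fold lower for miR-66-5p. This lay within the wider range of the tested miRNAs, which was -5.25 to 2.67 on the log2 scale. With limma's variance estimated without trend and robust options, only the 2 arms of miR-63 were called at 20 °C, and 4 calls were lost, with adjusted p of 0.0774 for miR-229-3p, 0.166 for miR-64-5p, 0.176 for miR-229-5p and 0.414 for miR-65-5p.

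**Figure D2:**
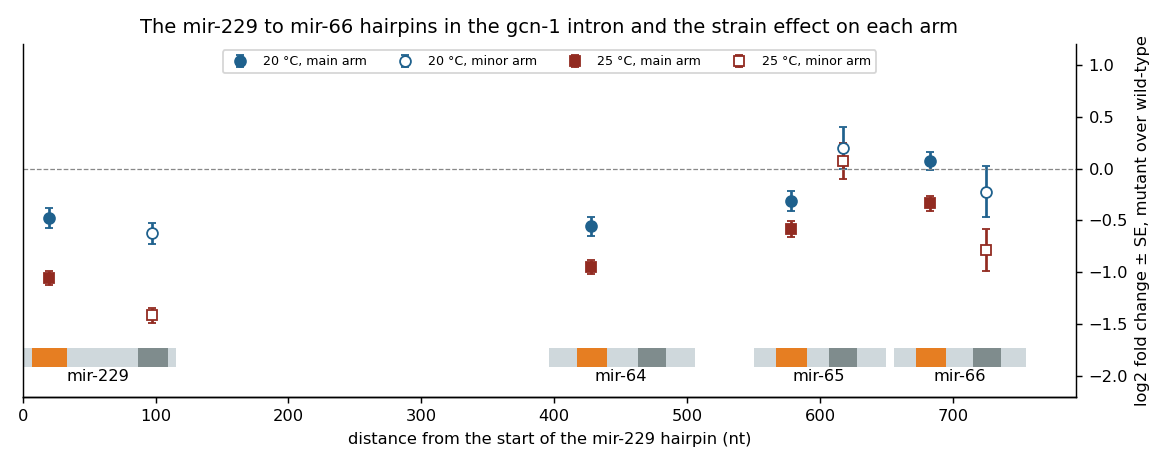
Left to right, the hairpins of mir-229, mir-64, mir-65 and mir-66 (grey bars, to scale; main arms orange, minor arms dark grey) by distance in nt from the start of mir-229, with the log2 difference between mutants and wild-type ± SE of each tested arm above them (right axis; n = 3 per strain at 20 °C, n = 4 at 25 °C). At 25 °C the main arms lie at -1.06, -0.95, -0.58 and -0.34 from the first hairpin to the last.

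Within the cluster, the differences of the main arms at 25 °C followed the order of the hairpins on the chromosome. They were -1.06 for miR-229-5p, -0.95 for miR-64-5p, -0.58 for miR-65-5p and -0.34 for miR-66-5p. The 95% intervals of miR-229-5p and miR-64-5p overlapped (-1.20 to -0.91 and -1.09 to -0.81), and so did those of miR-65-5p and miR-66-5p (-0.73 to -0.43 and -0.48 to -0.19). At 20 °C the order was not the same, with -0.48, -0.56, -0.31 and 0.08 for the 4 main arms. Nor did the tested minor arms follow it at 25 °C, with -1.42 for miR-229-3p, 0.07 for miR-65-3p and -0.78 for miR-66-3p. The hairpin reads at 25 °C were at -1.22 for mir-64 and -1.59 for mir-66, the last hairpin. With only 4 hairpins, position cannot be told apart from any other property of each hairpin.

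The direction of the smaller differences depended on how libraries were scaled. The median-of-ratios scaling added -0.37 (20 °C) or -0.59 (25 °C) to the log2 differences of the deposited rpm, less for features near the pseudocount, and the median of the deposited differences over all features was 0.35 or 0.54. On the deposited rpm 2 arms were lower and 2 higher in mutants at 20 °C, where 1.81% and 22.7% of all features were. At 25 °C, 5 were lower and 2 higher, where 13.3% and 51.9% of all features were. The 2 higher arms were miR-66-5p and miR-65-3p at both temperatures. miR-66-5p had 11213 to 11658 rpm as deposited in mutants and 7530 to 9563 rpm in wild-type at 20 °C (log2 difference 0.44, adjusted p = 0.00118), and 9997 to 11844 rpm in mutants and 8834 to 9091 rpm in wild-type at 25 °C (0.26, adjusted p = 4.97e-05). With size factors taken from CSR-class 22G siRNAs, a class of endogenous siRNAs that does not depend on the Microprocessor, 3 arms were lower and 0 higher at 20 °C, where 1.68% and 1.28% of all features were, and 3 were lower and 3 higher at 25 °C, where 3.9% and 58.3% of all features were. The 3 higher ones were miR-65-5p (0.30), miR-65-3p (0.94) and miR-66-5p (0.54). Both arms of miR-63 were lower and called under all 5 scalings at both temperatures, and miR-229-3p was at 25 °C. miR-64-5p and miR-229-5p had negative log2 differences under all 5, but their calls were lost at 25 °C with the CSR-class factors, where the values were -0.07 and -0.18, and at 20 °C on the deposited rpm, where they were -0.19 and -0.11. At 20 °C the CSR-class factors also ended the call for miR-229-5p (-0.32), and both scalings ended that for miR-229-3p (-0.26 as deposited, -0.47 with the CSR-class factors).

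**Figure D3:**
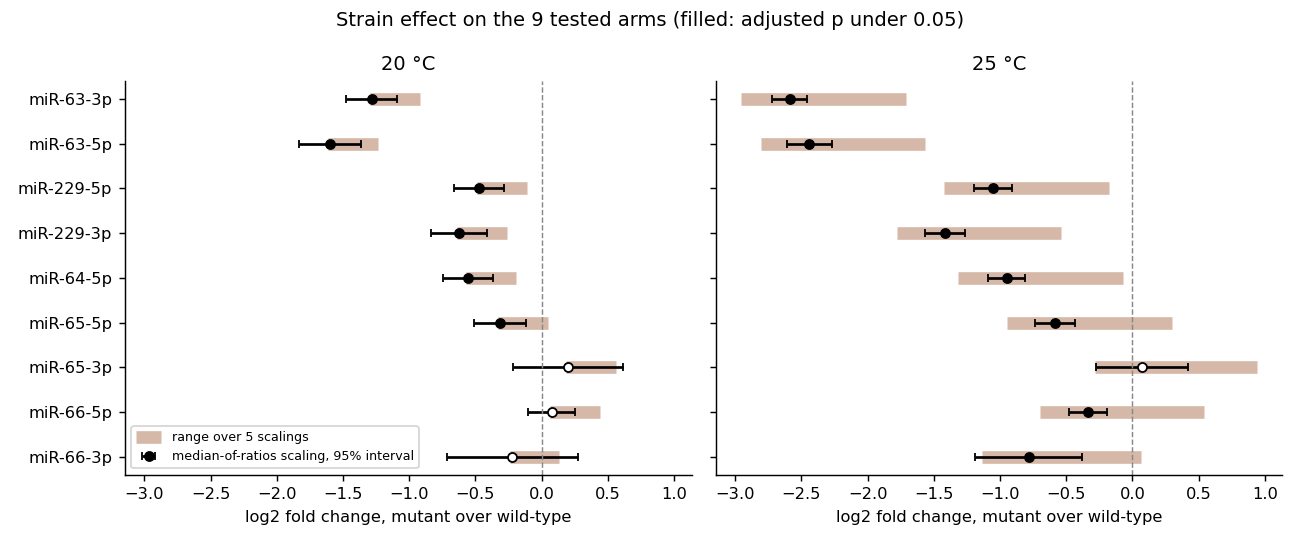
Log2 difference of each tested arm, mutants over wild-type, at 20 °C (left) and 25 °C (right), with points and bars for the median-of-ratios scaling and its 95% interval (filled where the adjusted p was under 0.05) and broad bands for the range over 5 scalings of the libraries. The bands of both miR-63 arms, of both miR-229 arms and of miR-64-5p stay below 0, and those of miR-65-5p, miR-66-3p and, at 25 °C, miR-66-5p and miR-65-3p cross it.

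Ratios of members within a library do not depend on the scaling. There were 15 of them at each temperature, compared by two-sided exact permutation tests, which cannot give a p below 0.1 for 3 libraries against 3 or below 0.029 for 4 against 4. None passed 0.05 after Benjamini-Hochberg adjustment over the 15, which reached 0.188 at 20 °C and 0.0612 at 25 °C at best, and 7 of the 15 had an unadjusted p under 0.05 at 25 °C and 0 at 20 °C. They are therefore given by size and overlap. The log2 ratio of miR-63-3p to the summed main arms of the cluster was -7.04, -6.88 and -7.08 in mutants, against -6.38, -6.02 and -5.76 in wild-type at 20 °C. The strains did not overlap, and the difference was -0.95 (exact p = 0.1, the smallest possible). At 25 °C the ratio was -7.98, -7.92, -7.78 and -7.70 in mutants, against -6.03, -5.89, -5.93 and -5.87 in wild-type. The difference was -1.92 (exact p = 0.0286, adjusted p = 0.0612), lower in 4 of 4 mutant libraries.

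Within the cluster, miR-65-5p stood higher relative to miR-64-5p in every mutant library. Their log2 ratio was 0.28, 0.26 and 0.29 in mutants and 0.04, 0.05 and 0.02 in wild-type at 20 °C, a difference of 0.24 (exact p = 0.1). At 25 °C it was 0.34, 0.38, 0.41 and 0.29 in mutants and -0.03, -0.04, 0.00 and 0.01 in wild-type, a difference of 0.37 (exact p = 0.0286). The spread within each group was at most 0.05 (SD), and no libraries overlapped. miR-66-5p also stood higher relative to miR-64-5p, by 0.63 at 20 °C (exact p = 0.1) and 0.62 at 25 °C (exact p = 0.0286), again with no overlap. The ratio was -0.58, -0.59 and -0.72 in mutants, against -1.59, -1.23 and -0.97 in wild-type at 20 °C, and -0.82, -0.85, -0.70 and -0.23 in mutants, against -1.32, -1.25, -1.24 and -1.25 in wild-type at 25 °C. Mutant replicate 4 was highest, and without it the difference at 25 °C was 0.48. The ratio of miR-66-5p to miR-65-5p, added after the values were seen, overlapped between the strains at both temperatures. Its differences were 0.39 (exact p = 0.2) and 0.25 (exact p = 0.0571), and without wild-type replicate 1 the first was 0.22, and without mutant replicate 4 the second was 0.09. The ratio of miR-229-5p to miR-64-5p overlapped too, with differences of 0.08 at 20 °C (exact p = 0.7) and -0.10 at 25 °C (exact p = 0.457). Without wild-type replicate 1 the first was -0.05, and without mutant replicate 4 the second was -0.22.

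**Figure D4:**
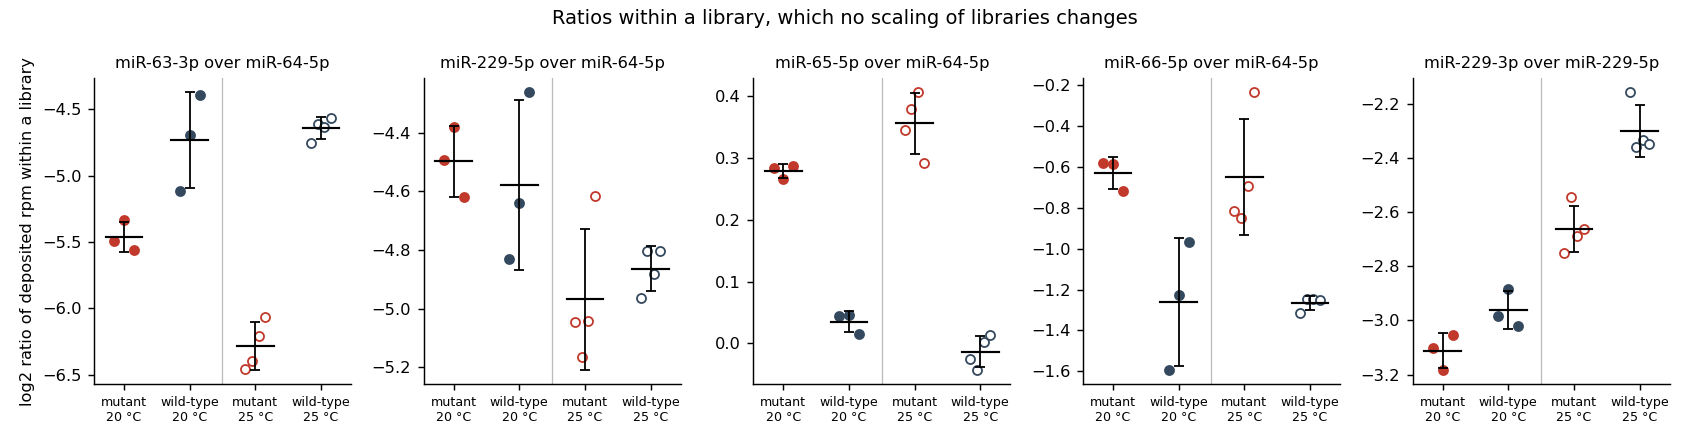
Log2 ratios of deposited rpm within each library (y axes differ between panels and do not start at 0), mutants left of wild-type at each temperature; points are libraries, bars the mean and SD (n = 3 per strain at 20 °C, n = 4 at 25 °C). miR-65-5p and miR-66-5p lie higher against miR-64-5p in every mutant library than in any wild-type library of the same temperature, miR-63-3p lies lower, and miR-229-5p overlaps.

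Together the 10 arms held 6.93% ± 0.206 of all miRNA rpm in mutants and 6.38% ± 0.361 in wild-type at 20 °C (SD, n = 3 each, exact permutation p = 0.2). At 25 °C they held 6.94% ± 0.811 in mutants and 6.45% ± 0.173 in wild-type (SD, n = 4 each, exact permutation p = 0.257). The mutant libraries at 25 °C had 7.31%, 7.47%, 7.25% and 5.73%, so that replicate 4 was below all wild-type libraries and the others above them. Without it the difference was 0.89 percentage points (exact permutation p = 0.0286). Members differed in what they took of the 10 arms. miR-63-3p made up 0.394% to 0.476% of the 10 arms in mutants, against 1.499% to 1.68% in wild-type at 25 °C, and miR-66-5p made up 19.1% to 27.1% in mutants, against 16.3% to 17.0% in wild-type. Reads were not calibrated against known amounts, and ligation differs between sequences, so shares of different miRNAs are shares of reads and not of molecules. By deposited rpm the order in mutants was miR-65-5p, miR-64-5p, miR-66-5p, miR-229-5p and miR-63-3p at both temperatures, with only the first and second overlapping at 25 °C. In wild-type miR-64-5p and miR-65-5p overlapped at both temperatures. miR-63-3p overlapped miR-229-5p in wild-type at 20 °C and was above it at 25 °C, at 829 to 913 rpm against 709 to 776 rpm. The minor arms ranked miR-229-3p, miR-63-5p, miR-65-3p, miR-66-3p and miR-64-3p in each of the 4 groups, and none overlapped its neighbour.

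The arms of a hairpin did not always keep their proportion. miR-229-3p made up 9.92% to 10.7% of the rpm of both arms in mutants, against 10.98% to 11.9% in wild-type at 20 °C, and 12.9% to 14.6% in mutants, against 16.3% to 18.3% in wild-type at 25 °C. The log2 ratio of miR-229-3p to miR-229-5p differed by -0.15 (exact p = 0.1) and by -0.36 (exact p = 0.0286), with no overlap at either temperature. For miR-63 the direction was not the same at the temperatures. The log2 ratio of miR-63-5p to miR-63-3p differed by -0.32 at 20 °C (exact p = 0.1) and by 0.14 at 25 °C (exact p = 0.0286), without overlap in either. Leaving out 1 library gave 0.10 to 0.17 for the second, and its unadjusted p was over 0.05 in 6 of 8 cases. The ratio of miR-65-3p to miR-65-5p was higher in mutants at 20 °C by 0.52 without overlap (exact p = 0.1), and overlapped at 25 °C (0.66, exact p = 0.0857; 0.36 without mutant replicate 4). That of miR-66-3p to miR-66-5p overlapped at both.

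Iso-miR reads were few beside the mature reads of the main arms, and at 25 °C were lower with them. At 25 °C the iso-miR rows of miR-63-3p (log2 difference -2.18), miR-64-5p (-0.92), miR-65-5p (-0.61), miR-66-5p (-0.66), miR-229-5p (-0.75), miR-229-3p (-1.20) and miR-64-3p (-1.66) were lower in mutants, 7 of the 7 tested, where 65.4% of the tested iso-miR rows were. The iso-miR row of miR-63-3p averaged 0.88 rpm as deposited in mutants and 2.935 rpm in wild-type, so it passed the filter only through wild-type. Its call is therefore no support for the difference. The iso-miR rows of miR-63-3p, miR-229-3p and miR-64-3p were lower under all 5 scalings. On the deposited rpm the calls were lost for miR-65-5p (-0.02), miR-66-5p (-0.07) and miR-229-5p (-0.18). With CSR-class factors these were at 0.27 (higher, adjusted p = 0.0216), 0.22 and 0.10, and the call for miR-64-5p was lost (-0.04). At 20 °C those of miR-64-5p (-0.59, adjusted p = 8.19e-04) and miR-229-3p (-0.46, adjusted p = 0.0254) were lower, 2 of 8 tested, where 30.9% of the tested iso-miR rows were. The call for miR-229-3p was lost without mutant replicate 1 (adjusted p = 0.105) or 3 (adjusted p = 0.169), without the filter (adjusted p = 0.0668), and under 3 other scalings, where the values were -0.09 as deposited, -0.38 with the piRNA total and -0.30 with the CSR-class factors. Both calls were lost as deposited, with the CSR-class factors and without eBayes options. The iso-miR row of miR-63-3p missed the threshold there (-0.97, adjusted p = 0.0512). For miR-66-5p alone among the main arms did the ratio of iso-miR to mature reads not overlap between the strains. It was 0.687 to 0.701 iso-miR rpm per 100 mature rpm in mutants, against 0.862 to 0.953 in wild-type at 20 °C, and 0.571 to 0.606 in mutants, against 0.698 to 0.783 in wild-type at 25 °C. On the log2 scale this was -0.39 (exact p = 0.1) and -0.32 (exact p = 0.0286). For miR-64-3p the iso-miR row held more than the mature row, 0.58 to 3.90 rpm as deposited over the 14 libraries against at most 0.19 rpm, so reads of this arm mostly did not begin at the annotated 5′ end.

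Hairpin reads, which overlap an annotated hairpin but match neither a mature nor an iso-miR end, differed in opposite directions at mir-63 and at the cluster at 25 °C. At 25 °C the mir-63 hairpin had 1.32, 1.96, 1.67 and 1.32 rescaled rpm in mutants, against 0.673, 0.307, 0.379 and 0.973 in wild-type. Every mutant library was higher, with a log2 difference of 1.38 (SE 0.34, adjusted p = 7.16e-04), where 33.6% of all features and 14.3% of the tested hairpin rows were higher. This row averaged 1.99 rpm as deposited in mutants and 0.49 rpm in wild-type, so it passed the filter of 1 rpm only through the mutants. The call is therefore no support for the difference. The mir-63 hairpin was higher under all 5 scalings. At 20 °C it had 1.13, 1.41 and 1.12 in mutants and 0.714, 0.307 and 0.358 in wild-type, without overlap, but its mean was under 1 rpm and it was not tested. With a read worth 0.0425 to 0.0609 rpm, these are few reads. Set against the mature reads of both arms, in a description added after the values were seen, there were 0.681 to 1.10 hairpin rpm per 100 mature rpm in mutants, against 0.0281 to 0.0809 in wild-type at 25 °C, and 0.289 to 0.362 in mutants, against 0.0320 to 0.0822 in wild-type at 20 °C.

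The mir-66 hairpin had the most such reads. At 25 °C it had 19.2, 17.9, 18.0 and 24.4 rescaled rpm in mutants, against 60.6, 52.9, 67.9 and 58.7 in wild-type. The strains were far apart, with a log2 difference of -1.59 (SE 0.10, adjusted p = 1.57e-14), while the mature miR-66-5p of the same hairpin differed by -0.34. At 20 °C the hairpin had 25.9, 19.6 and 27.7 in mutants and 24.8, 22.8 and 24.6 in wild-type, and the strains overlapped (0.00, 95% interval -0.28 to 0.28). Per 100 mature rpm this came to 0.216 to 0.248 in mutants, against 0.512 to 0.608 in wild-type at 25 °C, and to 0.204 to 0.288 in mutants, against 0.240 to 0.282 in wild-type at 20 °C. The mir-64 hairpin, at 1.71 to 6.08 rescaled rpm, was lower in mutants at 25 °C, where 60% of the tested hairpin rows were (-1.22, SE 0.18, adjusted p = 8.12e-07) and overlapped at 20 °C (-0.01, adjusted p = 0.992). The call at 25 °C was lost with the CSR-class factors, where the value was -0.37. The hairpin rows of mir-65 and mir-229 stayed below 1 rpm in every library and were not tested.

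**Figure D5:**
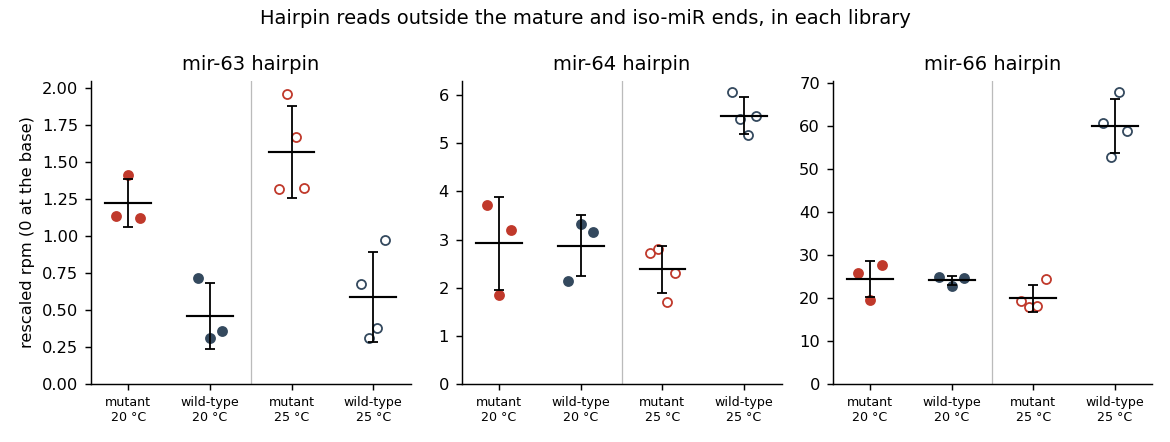
Rescaled rpm (y axes from 0) of reads within the mir-63, mir-64 and mir-66 hairpins that match neither mature nor iso-miR ends, mutants left of wild-type at each temperature; points are libraries, bars the mean and SD (n = 3 per strain at 20 °C, n = 4 at 25 °C). At 25 °C the mir-63 hairpin was higher in mutants (1.32 to 1.96 against 0.307 to 0.973) and the mir-66 hairpin lower (17.9 to 24.4 against 52.9 to 67.9).

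The strain effect was more negative at 25 °C than at 20 °C for 6 of the 9 tested arms and more positive for 0, by an interaction term over the 14 libraries, where 22.5% of all features and 48.5% of the tested miRNAs were more negative and 15.5% of all features more positive. The difference between the effects was -1.31 for miR-63-3p (SE 0.11, adjusted p = 2.20e-11), -0.84 for miR-63-5p, -0.79 for miR-229-3p, -0.58 for miR-229-5p, -0.41 for miR-66-5p and -0.39 for miR-64-5p. It missed the threshold for miR-65-5p (-0.27, adjusted p = 0.0897), miR-66-3p (-0.56, adjusted p = 0.156) and miR-65-3p (-0.13, adjusted p = 0.731). The count was 4 on the deposited rpm, where the calls of miR-64-5p (-0.17, adjusted p = 0.206) and miR-66-5p (-0.19, adjusted p = 0.136) were lost. It was 4 without eBayes options, where the same calls were lost, and 8 with the piRNA total. Over all 6396 features, 812 were more negative on the deposited rpm and 2601 with the piRNA total, beside 1439 in the main fit. With the piRNA total, 156 of the 227 tested miRNAs were more negative. With the CSR-class factors miR-63-3p alone stayed more negative (-0.59), and miR-64-5p (0.33) and miR-65-5p (0.45) were more positive. Of all 6396 features, 105 were more negative and 2768 more positive with these factors. The call for miR-64-5p was also lost without wild-type replicate 3 at 20 °C (-0.29) and without the filter on low values. The embryo markers named above were all more negative at 25 °C as well, by a median of -1.07.

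For each main arm, the 2 miRNAs outside the family with the most alike profile over the 14 libraries were looked up. Likeness was the root mean square difference of log2 values centred within each temperature. The search covered 227 miRNAs, and the members among them were left out of it. For miR-63-3p they were miR-50-5p (0.08) and miR-51-5p (0.13), a relative of miR-100, while the nearest of the other main arms, miR-229-5p, was at 0.64. Minor arms, among them miR-63-5p, were not compared. For miR-229-5p they were miR-86-5p (0.07) and miR-81-3p (0.09), for miR-64-5p miR-82-3p (0.12) and miR-238-3p (0.13), for miR-65-5p miR-80-3p (0.16) and miR-240-5p (0.16), and for miR-66-5p miR-58a-3p (0.07) and miR-44-3p (0.11). The clustered main arms were nearer to each other than to miR-63-3p, at 0.16 between miR-64-5p and miR-65-5p and 0.17 between miR-229-5p and miR-64-5p. The member miR-64-5p was thus about as near to miR-65-5p as the miRNAs named for it. These measures include the difference between strains and carry no test.

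Other seed families gave a scale for these differences. The 7 miRNAs from miR-35-3p to miR-41-3p, needed in embryos, were all lower in mutants, with a median log2 difference of -1.15 at 20 °C and -2.07 at 25 °C. Of the 6 main arms of miR-51 to miR-56, 2 were lower at 20 °C and 5 at 25 °C, with medians of -0.21 and -0.41. Of the 4 tested relatives of miR-58, counterparts of the fly miRNA bantam, 3 and 4 were lower, with medians of -0.39 and -0.77. The 4 main arms of the mir-229 to mir-66 cluster had medians of -0.40 and -0.77, and miR-63-3p, at -1.28 and -2.59, lay within the range of the miR-35-3p to miR-41-3p values, which was -1.77 to -0.37 and -3.07 to -1.42.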

How the data were processed

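The authors trimmed and filtered reads with fastp, aligned them with bowtie to the C. elegans genome (WS279) and assigned them to features with tinyRNA: a mature miRNA row takes reads that begin at the annotated 5′ end, and iso-miR and hairpin rows take what remains. The deposited rpm values, 1 table per temperature, are read numbers divided by library size. The class column of the 20 °C table stood 1 line too low and was moved back, after which all 23869 classes equalled those of the 25 °C table.

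Size factors (median of ratios, per table) were applied to the rpm, and 0.1 was added before log2. The 7034 features at 20 °C and 7070 at 25 °C that averaged 1 rpm or more were fitted with limma 3.58.1 in R 4.3.3 (lmFit, eBayes with trend and robust options). The p-values were adjusted over all of these features by the Benjamini-Hochberg method, and the threshold was 0.05. The authors tested with DESeq2 inside tinyRNA, which was not repeated here. The temperatures were compared by an interaction term over 6396 features. For ratios and shares a two-sided exact permutation test over all ways to divide the libraries between the strains was used. This and other steps used pandas 2.3.3 and numpy 2.4.6, and the fit was tested on simulated data. Of values under 1 rpm, 89.8% to 91.5% were whole reads at the step of their library (within 0.005 rpm), which did not suffice to recover read counts, so no intervals for counting error are given. No pair of libraries within a group matched within sampling noise (median chi-square 1.2 to 2.26 per pair, against 0.455 for noise alone), so each counted as a separate library. Same-numbered libraries did not deviate together, so the numbers were not used as pairs.

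The text names all 10 arms with their iso-miR and hairpin rows, a fixed set of ratios, the 2 miRNAs outside the family most like each main arm and lists of other families. Members and lists were chosen with earlier results of these data known. Alternatives were a pseudocount of 0.01 or 1 rpm, a filter at 5 rpm or none, 4 other scalings, eBayes without its options, the replicate number as a covariate, and each library left out. Gene positions came from the Ensembl annotation of WBcel235, the assembly that WS279 uses.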

Additional observations from a re-analysis of the deposited data

Results flagged for a closer look

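The strain effect on 11 features of the family differed between the temperatures by the interaction term (adjusted p under 0.05). All were more negative at 25 °C, as were 22.5% of all features and 48.5% of the tested miRNAs. Another 15.5% of all features were more positive. The effect at 25 °C minus that at 20 °C was -1.31 for miR-63-3p, -1.21 for its iso-miR row, -0.84 for miR-63-5p, -0.58 for miR-229-5p, -0.79 for miR-229-3p, -0.75 for the iso-miR row of miR-229-3p, -0.39 for miR-64-5p, -0.41 for miR-66-5p, -0.34 for the iso-miR row of miR-66-5p, -1.21 for the mir-64 hairpin and -1.60 for the mir-66 hairpin. The iso-miR row of miR-63-3p averaged 0.88 rpm in mutants at 25 °C and passed the filter there only through wild-type. For the iso-miR row of miR-66-5p the adjusted p was 0.0495, and the call was lost on leaving out any of 9 of the 14 libraries (adjusted p 0.0645 to 0.153) and under 5 of 10 other settings.

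At 25 °C a single library lay far from the other 3 of its group in 6 values, where its gap to the nearest library, as a share of the group's range (given in brackets), passed Dixon's 95% critical value. In mutants these were the log2 ratio of miR-63-5p to miR-63-3p (0.911) and the family's share of miRNA rpm (0.877), with replicate 4 apart in both. In wild-type they were the rescaled rpm of miR-65-5p (0.832, replicate 2 low), miR-64-3p (1.0, read in replicate 3 only), the log2 ratio of miR-66-5p to miR-64-5p (0.899, replicate 1 low) and that of miR-229-3p to miR-229-5p (0.868, replicate 1 high). Chance alone gives such a gap in about 1 of 20 groups. Whether these 6 exceed what chance gives over all the groups screened was not tested.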

How the results depend on the processing

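On the rpm as deposited, 2 member arms were lower and 2 higher at 20 °C and 5 lower and 2 higher at 25 °C. Log2 differences turned positive at 20 °C for miR-65-5p (0.051), miR-66-3p (0.13), the iso-miR reads of miR-65-5p (0.043) and miR-66-5p (0.054) and the mir-64 hairpin (0.34), at 25 °C for miR-65-5p (0.0079) and miR-66-5p (0.26), and between the temperatures for miR-65-3p (0.10). With CSR-class factors, 3 arms were lower at 20 °C, 3 lower and 3 higher at 25 °C, and 1 more negative and 2 more positive between the temperatures. Between the temperatures, 105 of all 6396 features were more negative and 2768 more positive with these factors. The mir-64 hairpin at 20 °C was at 0.14. At 25 °C the values were 0.30 for miR-65-5p, 0.54 for miR-66-5p, 0.063 for miR-66-3p, and 0.27, 0.22 and 0.10 for the iso-miR reads of miR-65-5p, miR-66-5p and miR-229-5p. Between the temperatures they were 0.33 for miR-64-5p, 0.45 for miR-65-5p, 0.31 for miR-66-5p, 0.14 for miR-229-5p, 0.58 for miR-65-3p, 0.13 for miR-66-3p, and 0.38, 0.43, 0.37 and 0.38 for the iso-miR reads of miR-64-5p, miR-65-5p, miR-66-5p and miR-229-5p. Scaled to the piRNA total, the mir-64 hairpin at 20 °C was at 0.061 and miR-65-3p at 25 °C at -0.29. Without miRNA classes in the size factors the mir-66 hairpin at 20 °C was at -0.010, and with a pseudocount of 1 rpm the mir-64 hairpin was at 0.0005. Without eBayes trend and robust options, 2 arms were lower at 20 °C, as few as on the deposited rpm, and 8 at 25 °C. Arms more negative between the temperatures were 4 on the deposited rpm, 4 without eBayes options and 8 with the piRNA total. Of all 6396 features, 812 were more negative on the deposited rpm and 2601 with the piRNA total. Apart from the construction of each scaling, the cause was not tested.

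Leaving out 1 library at a time gave 5 to 6 lower arms at 20 °C, 8 at 25 °C and 5 to 7 more negative between the temperatures. The miR-63-3p ratio to the cluster ran over -1.11 to -0.80 and -1.96 to -1.87, and the family share over 0.44 to 0.75 and 0.32 to 0.89 percentage points (20 °C and 25 °C in turn). Differences near 0 changed sign. At 20 °C they ran over -0.046 (without wild-type replicate 1) to 0.24 for miR-229-5p over miR-64-5p, over -0.048 to 0.14, -0.071 to 0.0047 and -0.044 to 0.048 for the iso-miR over mature ratios of miR-229-5p, miR-64-5p and miR-65-5p, and over -0.21 to 0.28 and -0.099 to 0.15 for the mir-64 and mir-66 hairpins. miR-65-3p ran over -0.13 (without mutant replicate 4) to 0.27 at 25 °C and over -0.33 to 0.070 between the temperatures.

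Libraries shared only a number: correlations of same-numbered libraries' deviations ran from -0.15 to 0.10. With the replicate block, 6, 8 and 7 arms were called lower at 20 °C, lower at 25 °C and more negative, and the miR-63-3p ratio to the cluster at 25 °C kept its value of -1.92, with an exact p of 0.125, the smallest that 4 pairs allow. Depth limits the features near 1 rpm, among them the mir-63 hairpin and the iso-miR reads of miR-63-3p, miR-64-3p and miR-66-3p.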
